A study of Mus musculus with 8 samples.

Results

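The genes examined here were 10 members of the AP-1 family of transcription factors, taken as a fixed list of names out of 21521 protein-coding genes: Fos, Fosb, Fosl1 and Fosl2 (FOS), Jun, Junb and Jund (JUN), and Atf3, Batf and Maff (ATF/BATF/MAF). They were studied in a list of 9829 binding regions (peaks) of RelA, the p65 subunit of NF-kB. A peak was counted for a gene where its centre lay inside the gene or within 50 kb of either end in the RefSeq GRCm38 gene table, and 21 peaks of the list met this rule. The peaks came from chromatin immunoprecipitation and sequencing (ChIP-seq) of wild-type C57BL/6 primary embryonic fibroblasts, serum-starved overnight and taken at 0, 0.5 and 3 h of TNF, an inflammatory cytokine, at 10 ng/ml. Chromatin was cross-linked with 2 agents, which can also hold proteins that touch DNA through others. There were 2 ChIP libraries for each of the 3 times and 2 libraries of input DNA. The single list carried positions in base pairs on mm10 and no height, p-value, time or library, so depth was unknown, times and replicates could not be compared, and fibroblast identity could not be checked, since the list holds no RNA. All values below describe 1 list, without a test, and a peak near a gene does not show that the gene was regulated.

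AP-1 is a pair of basic leucine zipper proteins that binds short DNA elements, the TPA response element and the cyclic AMP response element (CRE). FOS proteins typically bind DNA together with a partner such as a JUN protein, while JUN proteins can also pair with each other. ATF3 is a stress-induced partner of JUN, BATF pairs with JUN and lacks an activation domain of its own, and MAFF is a small MAF protein, also without one. In fibroblasts, Fos and Jun are classical immediate early genes, transcribed within minutes of serum or cytokine addition. NF-kB is the other main factor that TNF activates, and RelA binds DNA through kappaB sites.

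RelA peaks lay in the windows of 9 of the 10 members, against 43.2% of all protein-coding genes. For protein-coding genes no longer than the longest member the share was 36.5%. Maff had the most peaks, 4, followed by Jun and Batf with 3 each. Fos, Fosl1, Fosl2, Junb and Jund had 2 each, Atf3 had 1 and Fosb had none. Thus 3 members had 3 or more peaks, against 7.36% of protein-coding genes. No peak lay in the windows of 2 members. A peak centre lay within 10 kb of a gene end for 6 members (Fosl2, Junb, Jund, Atf3, Batf and Maff), against 17.1% of protein-coding genes. The members were chosen with earlier results of these data known, so these shares are not a test of enrichment in the family.

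**Figure D1:**
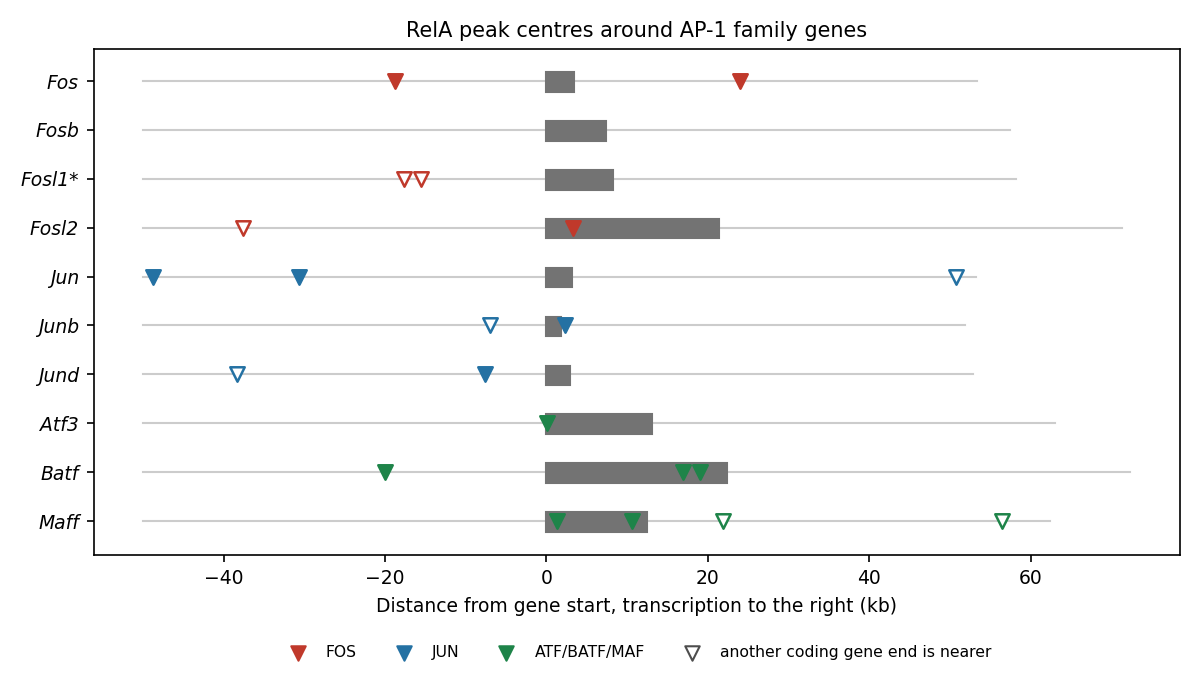
Peak centres (triangles) around each of the 10 genes, as distance from the gene start in kb with transcription to the right; dark bars are genes and grey lines are the 50 kb windows. Open triangles are peaks with the end of another protein-coding gene nearer, and Fosl1 (asterisk) is drawn from its lower coordinate, since no strand was used for it; the Atf3 peak and the first of the 4 Maff peaks sit at a start site, and those of Fos, Fosl1 and Jun lie 15.5 kb or more from the gene.

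**Figure D2:**
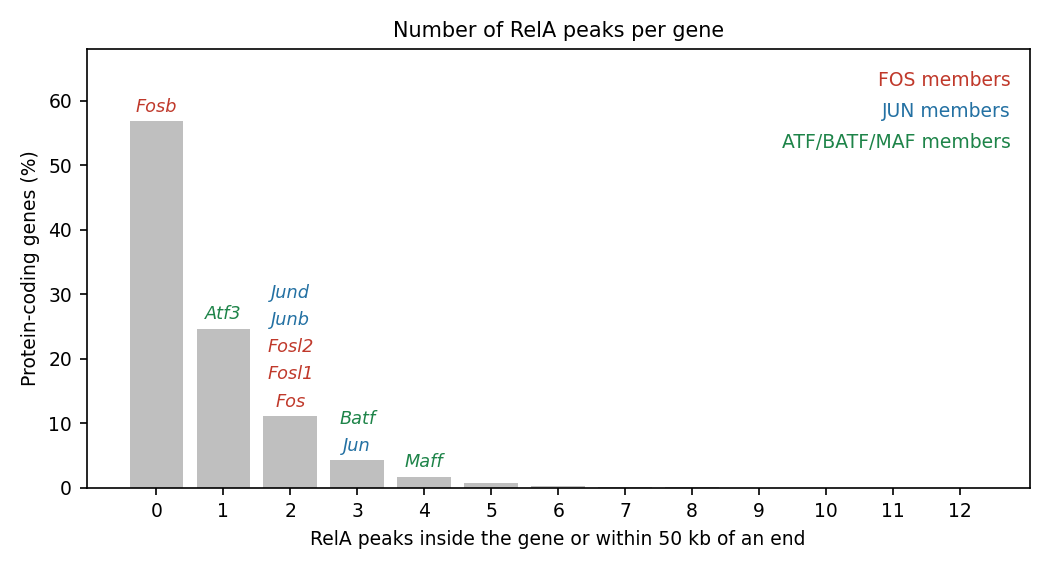
Bars give the percentage of protein-coding genes with each number of RelA peaks inside the gene or within 50 kb of an end, and member names stand above the bar of their own number. Most protein-coding genes (56.8%) had none, as Fosb did, and 1.75% had 4, as Maff did.

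The start sites of Atf3 and Maff were the only member start sites inside a RelA peak. Of the 9 members with a strand and start site in the RefSeq promoter table, these 2 had a start site within a peak, against 4.96% of the protein-coding genes in that table. The 250 bases before each of these start sites are shown because they are the promoter sequence that the peaks cover or border. They are RefSeq sequence of GRCm38.p6, 5′ to 3′ in the direction of transcription. Capitals mark the kappaB consensus, GGGRNNYYCC, or the CRE, TGACGTCA. R stands for A or G, Y for C or T and N for any base.
Atf3, chr1:191183334-191183583, minus strand: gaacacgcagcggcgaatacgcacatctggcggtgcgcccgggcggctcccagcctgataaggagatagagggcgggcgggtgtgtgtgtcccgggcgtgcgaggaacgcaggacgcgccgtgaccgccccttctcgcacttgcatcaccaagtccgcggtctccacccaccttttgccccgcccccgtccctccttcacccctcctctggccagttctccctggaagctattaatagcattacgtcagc
Maff middle start site, chr15:79347270-79347519, plus strand: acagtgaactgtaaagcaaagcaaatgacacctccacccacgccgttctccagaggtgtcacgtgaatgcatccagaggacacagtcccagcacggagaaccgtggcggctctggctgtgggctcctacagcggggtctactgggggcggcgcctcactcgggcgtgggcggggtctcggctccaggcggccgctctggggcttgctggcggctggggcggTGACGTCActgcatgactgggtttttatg
Maff last start site, chr15:79348152-79348401, plus strand: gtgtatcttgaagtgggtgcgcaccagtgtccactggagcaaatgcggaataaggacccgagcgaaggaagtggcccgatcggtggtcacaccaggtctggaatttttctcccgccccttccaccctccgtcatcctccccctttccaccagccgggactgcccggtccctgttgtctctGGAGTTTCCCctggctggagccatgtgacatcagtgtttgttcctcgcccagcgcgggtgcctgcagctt

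Before the last Maff start site, GGAGTTTCCC lay at chr15:79348332-79348341, 70 to 61 bases from the start, and read as the kappaB consensus on the opposite strand (GGGAAACTCC). Before the middle Maff start site, the CRE lay 29 to 22 bases from the start. The Atf3 sequence held no exact match to either motif, and near matches to the CRE were not searched. Both strands were searched from 250 bases before to 50 bases after each start site. The kappaB consensus was found at 8.51% of 32619 start sites of all genes and at 30.6% of the 1182 start sites inside a RelA peak. The CRE was found at 1.80% of all start sites and at 3.81% of those inside a peak. Neither the AP-1 element TGANTCA nor the CArG box, the serum response element core, was found in these bases at the 11 member start sites, against 7.85% and 1.64% of all start sites. Elements farther out or with other letters were not searched, so this does not show that the promoters lack them. A match of letters is not a measured binding site.

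The kappaB letters also stood near start sites with no peak over them. They were found at the start sites of Fos, Fosb and Fosl2. Thus 4 of 11 member start sites held them, including the last of Maff, against 8.51% of all start sites. The stretches are shown to set them beside the Maff match, with the matches in capitals; the Fosl2 stretch holds matches at 2 overlapping positions, and each other stretch at 1, counting a position once for both strands.
Fos, chr12:85473661-85473700, plus strand: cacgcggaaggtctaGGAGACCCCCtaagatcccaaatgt
Fosb, chr7:19310209-19310248, minus strand: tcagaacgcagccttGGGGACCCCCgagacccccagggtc
Fosl2, chr5:32136275-32136315, plus strand: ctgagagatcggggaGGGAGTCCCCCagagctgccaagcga

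These 3 genes had their nearest peak centres 18.7, 50.3 and 3.33 kb from the start site. With a looser kappaB pattern, GGRNNNYYCC, tried after the data were seen, 6 of 11 member start sites had a match, against 26.9% of all start sites. Atf3 and Batf were among them.

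In the FOS group, the nearest peaks lay 3.33 to 50.3 kb from a gene end. Fos on chromosome 12 (85473890 to 85477274) encodes c-Fos. One peak, at 85454823 to 85455498 and 676 bp wide, was centred 18.7 kb upstream of its start, inside the lncRNA gene Gm38543. The other, at 85497441 to 85498338 and 898 bp wide, was centred 20.6 kb beyond its far end. Fos thus had peaks on both sides and none within 10 kb, and no other protein-coding gene had either peak in its window.

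Fosl2 on chromosome 5 (32136472 to 32157840), which encodes FRA-2, was the FOS gene with the nearest peak. A 561 bp peak at 32139517 to 32140077 was centred inside the gene, 3.33 kb past the start. A further 529 bp peak, 37.5 kb upstream, lay inside the lncRNA gene Gm40277, 14.0 kb from the end of Babam2, which encodes a subunit of the BRCA1-A complex. These were the narrowest pair among the members, at the 12.8 and 18.9 percentiles of width over all peaks on chromosomes.

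Fosl1 on chromosome 19 (5447698 to 5455938), which encodes FRA-1, had 2 peaks of 671 and 652 bp on its lower-coordinate side. Their centres lay 17.6 and 15.5 kb from the gene end and 2.10 kb from each other. AI837181 was the nearest protein-coding gene to both, at 2.76 and 4.86 kb, and both stood in the windows of 8 other protein-coding genes. All 8 had exactly the same peak set as Fosl1, the closest being Ccdc85b, Fibp and Ctsw. The list does not assign these 2 peaks to any one of the genes.

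Fosb on chromosome 7 (19302696 to 19310118) was the member with no peak in its window. The nearest, at 19360130 to 19360650 and 521 bp wide, was centred 50.27 kb upstream, 272 bp past the 50 kb limit. It lay 0.666 kb from the end of Ppp1r13l, which encodes the p53-binding inhibitor iASPP. The farthest peak counted for any member lay 48.8 kb away, at Jun, so Fosb and Jun stand just outside and just inside the limit. Fosb had no other peak within 100 kb.

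The JUN genes, which are short, all had peaks outside the gene. Jun on chromosome 4 (95049036 to 95052222) encodes c-Jun and had 3 peaks, none within 30 kb. As at Fos, peaks lay on both sides of the gene. Peaks of 795 and 921 bp were centred 30.6 and 48.8 kb upstream of the start and 18.1 kb from each other. Both lay inside Junos, a lncRNA gene (95052317 to 95169036) of 116720 bp that adjoins the Jun start and extends away from it. The other peak, of 757 bp, was centred 47.6 kb beyond the far end of Jun, 22.2 kb from Mysm1, a histone deubiquitinase gene, and inside the lncRNA gene Gm12694.

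Junb on chromosome 8 (84976909 to 84978748) encodes JunB. It had an 820 bp peak at 84976063 to 84976882, centred 0.436 kb beyond its far end and 2.28 kb past its start site. The nearest end was thus the end of the gene and not its start. A second peak of 1105 bp, at the 95.2 percentile of width, was centred 7.02 kb upstream of the start and 3.00 kb from Hook2, a microtubule linker gene. The region is dense in genes: 7 protein-coding genes had the same pair of peaks, the closest being Prdx2 (a peroxiredoxin), Rnaseh2a (a ribonuclease H2 subunit) and Hook2.

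Jund, on the same chromosome (70697739 to 70700616) and 14300 kb from Junb, encodes JunD. A 546 bp peak was centred 7.59 kb upstream of its start, inside the lncRNA gene Gm39191, and Jund was the nearest protein-coding gene. An 894 bp peak lay 38.3 kb upstream, inside Pgpep1 and 1.05 kb from the end of that gene, which encodes a pyroglutamyl peptidase. Iqcn, Lsm4 (an RNA-binding LSm protein gene) and Pgpep1 had the same pair of peaks as Jund.

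The ATF/BATF/MAF genes each had a peak within 3.29 kb of a gene end. Atf3 on chromosome 1 (191170296 to 191183333) had a single peak, at 191182837 to 191183742 and 906 bp wide, centred 0.0435 kb inside its start. Only 0.553% of protein-coding genes had a peak centre as near to a gene end. The next peak of the list was centred 97.7 kb away. Fam71a, 5.48 kb from Atf3, had the same peak in its window, with its nearer end farther from it.

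Maff on chromosome 15 (79346621 to 79359078) had 4 peaks. The first, at 79347351 to 79348614, was 1264 bp wide, the widest of the 21 and at the 98.2 percentile of all peaks. It spanned the middle and last of the 3 annotated start sites (79347520 and 79348402) and not the first (79346621), with its centre 0.419 kb upstream of the last. A 584 bp peak lay further inside the gene, 1.82 kb from its far end. Peaks of 672 and 733 bp lay 9.39 and 44 kb beyond the far end. Both were centred inside Tmem184b, the nearest protein-coding gene, 7.78 and 0.178 kb from an end of that gene. Tmem184b had all 4 peaks in its window, while Pla2g6, a phospholipase A2 gene, shared 3 and Csnk1e, a casein kinase gene, shared 2.

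Batf on chromosome 12 (85686720 to 85709087) had 3 peaks, and was the nearest protein-coding gene to each. One of 663 bp was centred 19957 bp upstream of the start. Peaks of 677 and 796 bp were centred inside the gene, 16.9 and 19.1 kb past the start and 2.17 kb from each other, in its far part. Flvcr2, a membrane transporter gene, shared 2 of them and Jdp2 shared 1.

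Fos, Jdp2 and Batf form a run of AP-1 genes over 235 kb of chromosome 12. Jdp2 encodes a JUN dimerization partner that can repress AP-1 sites, and it lay 121 kb from Fos and 46.8 kb from Batf. Of the 6 peaks from 50 kb before Fos to 50 kb after Batf, 2 fell in the window of Fos and 3 in that of Batf. The remaining peak, at 85532291 to 85533598, was the widest at 1308 bp and lay 59.1 kb from the start of Fos, in the window of neither. The nearest peak to Jdp2 was the 663 bp one upstream of Batf, 26.9 kb from its end.

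**Figure D3:**
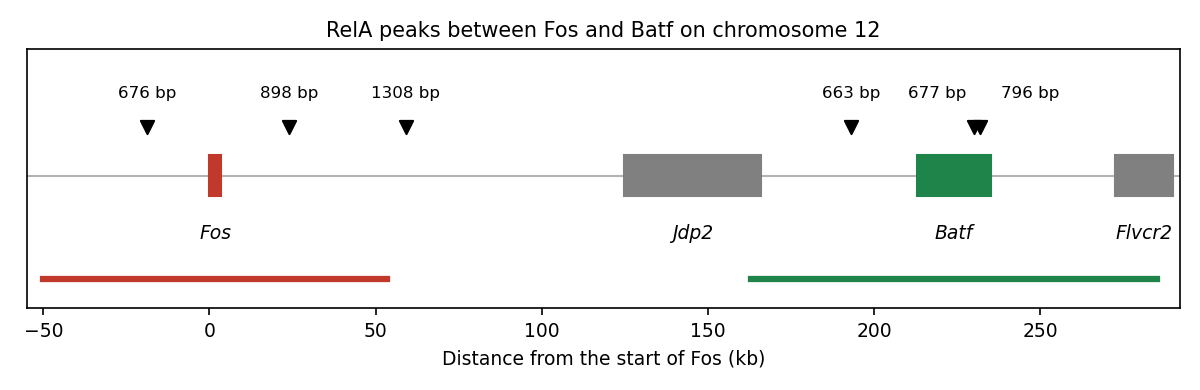
Genes (boxes) and RelA peak centres (triangles, with peak width in bp) by distance from the start of Fos in kb; the red and green lines below are the 50 kb windows of Fos and Batf, and Flvcr2 runs past the right edge. The 1308 bp peak lies in the stretch between the windows, and no peak lies inside Jdp2.

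Set side by side, the 3 groups differed in where peaks lay. FOS genes had 6 peaks, of which 1 was inside a gene (Fosl2). JUN genes had 7, with none inside, 5 upstream and 2 downstream. ATF/BATF/MAF genes had 8, of which 5 were inside, 1 upstream and 2 downstream. The share of all peaks centred inside a protein-coding gene was not counted, so these counts only describe the members. Measured to the nearer gene end, the nearest peak lay at 3.33 to 50.3 kb for FOS genes (median 17.1 kb). The range was 0.436 to 30.6 kb for JUN genes (median 7.59 kb) and 0.0435 to 3.29 kb for ATF/BATF/MAF genes (median 1.36 kb). By this measure the ATF/BATF/MAF and FOS ranges did not overlap, although Batf (3.29 kb) and Fosl2 (3.33 kb) were nearly level, and JUN genes spread over both. The nearest peaks of Fosl2 and of all the ATF/BATF/MAF genes were centred inside the gene. Counted from the gene body, Fosl2 was thus not set apart from them. By distance to a start site the groups did overlap: the range was 3.33 to 50.3 kb for the 3 FOS genes with a start site in the table, 2.28 to 30.6 kb for JUN genes and 0.0435 to 16.9 kb for ATF/BATF/MAF genes, with Batf the farthest. The median distance to a gene end over all protein-coding genes was 70.8 kb. With 3 or 4 genes a group, and genes that are not replicates, no test of these differences was made.

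**Figure D4:**
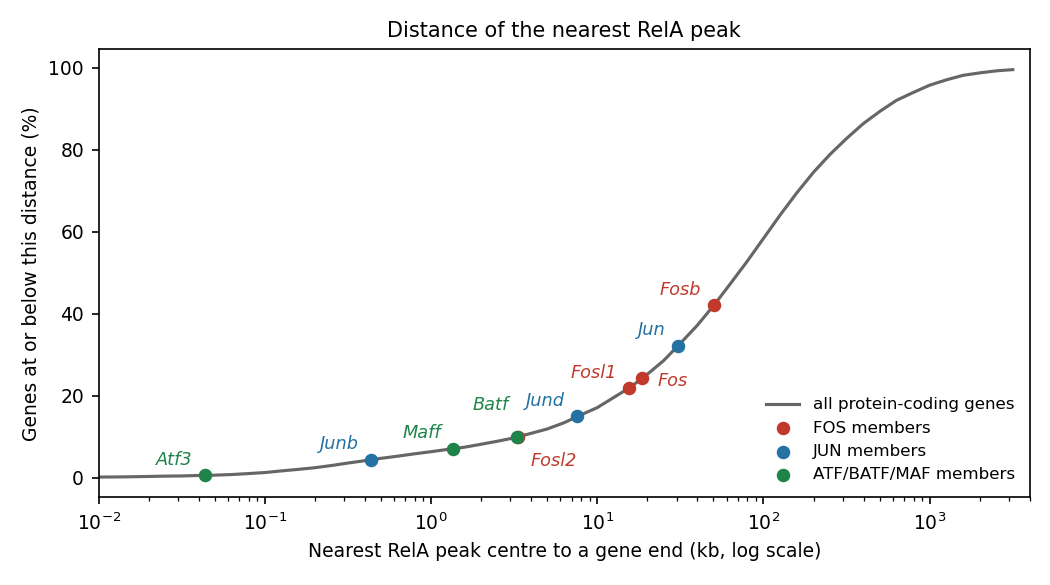
The line gives the percentage of protein-coding genes whose nearest RelA peak centre lies within each distance of a gene end (kb, log scale), and points place the members on it. Batf (3.29 kb) and Fosl2 (3.33 kb) share a position, Atf3 is at the lower left end, and Fosb at 50.3 kb is the farthest member.

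Gene length went with the placement. All 4 members with a peak centre inside them (Fosl2, Atf3, Batf and Maff) were 12458 to 22368 bp long, and the other 6 members were 1840 to 8241 bp long. Among all protein-coding genes up to 22368 bp, 5.08% had a peak centre inside. By length, the share was 8.5% for genes of 10 to 25 kb, where 4 of 4 members had one. It was 5.03% for genes of 5 to 10 kb, with 0 of 2 members, and 1.96% for shorter ones, with 0 of 4. The part of length in the difference between the groups was not tested.

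Within 1 kb of a gene end, 2 members had a peak centre, Atf3 and Junb, against 6.34% of protein-coding genes. By start site there were also 2, but they were Atf3 and Maff. The share of all genes by start site was not counted. Maff had 3 annotated start sites, against 1 for each other member in the promoter table. Of the 21 peaks, 13 had the member as the nearest protein-coding gene, and 8 had another gene nearer. These 8 were both peaks of Fosl1, 2 of Maff, and 1 each of Fosl2, Jun, Junb and Jund. With each peak given only to its nearest protein-coding gene, 8 members kept a peak, against 21.9% of protein-coding genes. Of the 21 peaks, 6 lay inside a lncRNA gene and no other gene, against 9.36% of all peaks on chromosomes. They were all 3 of Jun, 2 of them in Junos, and 1 each of Fos, Fosl2 and Jund. For 5 peaks no other protein-coding gene had the peak in its window: both of Fos, the 2 upstream of Jun and the one inside Fosl2. How often this held over all peaks was not counted.

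Peak width was the one further value the list holds. Over all 9823 peaks on chromosomes the median was 687 bp and the quartiles were 587 and 816 bp. Widths ran from 529 to 898 bp at FOS genes (median 661.5 bp), from 546 to 1105 bp at JUN genes (median 820 bp) and from 584 to 1264 bp at ATF/BATF/MAF genes (median 705 bp). The peak was wider than the median of the list in 1 of 6 cases at FOS genes, 6 of 7 at JUN genes and 4 of 8 at ATF/BATF/MAF genes. Only the first Maff peak and the upstream Junb peak passed the 90th percentile. Width is not height, and how it relates to the amount of RelA bound is unknown.

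**Figure D5:**
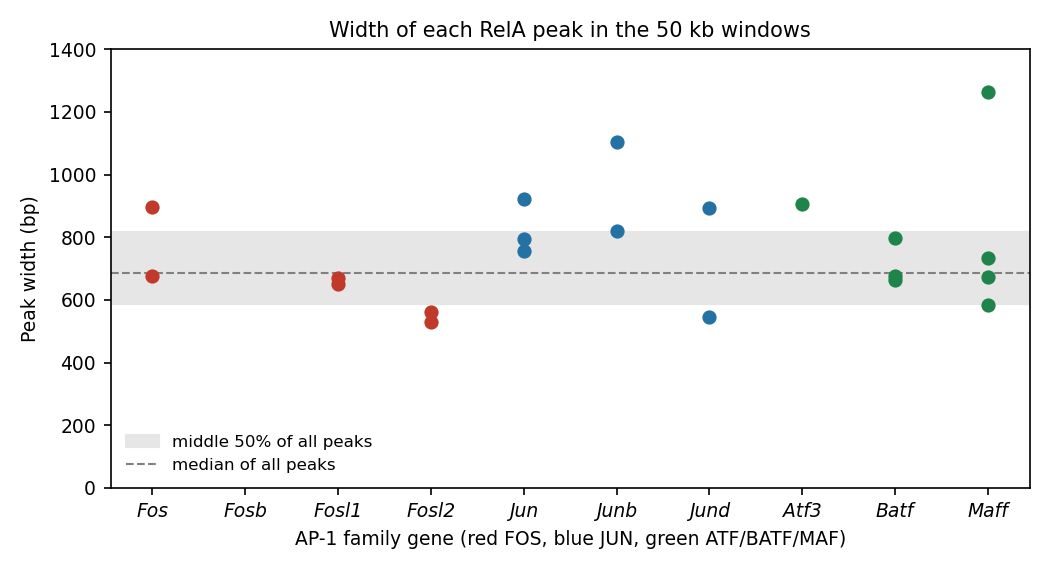
Each point is the width in bp of 1 RelA peak in the window of the gene named below; the grey band is the middle 50% of all peaks on chromosomes (587 to 816 bp) and the dashed line their median (687 bp). Every Jun and Junb peak lies above the line and both Fosl2 peaks lie below the band, and Fosb has none.

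The other AP-1 genes of the ATF, BATF, JDP and MAF kinds had peaks in their windows in a share close to that of all genes. Of 11 such genes, 5 (45.5%) had a peak in the 50 kb window and 1 (9.09%) within 10 kb of an end, against 43.2% and 17.1% of protein-coding genes. The one within 10 kb was Mafa, a large MAF factor of pancreatic beta cells, at 9.66 kb. Batf3, which lies 61.4 kb from Atf3, had its nearest peak at 22.8 kb. Atf2, a partner of c-Jun at CRE sites, had its nearest at 209 kb.

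Genes of the kinases and serum response factors that act on AP-1 gave a similar share. Of 22, 10 (45.5%) had a peak in the 50 kb window and 4 (18.2%) within 10 kb of an end. Those 4 were Map2k3 at 0.243 kb, which encodes a kinase of p38, Map3k7 at 0.398 kb, which encodes TAK1, Mapk3 at 1.04 kb, which encodes ERK1, and Elk3 at 1.27 kb, which encodes a ternary complex factor of serum response elements. The JNK genes Mapk8, Mapk9 and Mapk10, whose products phosphorylate c-Jun, had their nearest peaks at 51.7, 45.2 and 164 kb. Srf itself had one at 36.7 kb. The JNK genes, Srf, Batf3 and Atf2 were named after their values were seen.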

How the data were processed

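RelA ChIP-seq was made from double cross-linked chromatin, per the labels' protocols. MACS2, Bowtie2 2.3, cutadapt 1.9.1, Picard 1.13, SAMtools and deepTools are listed with mm10 in the submitters' processing notes, without their roles; threshold, input use and pooling were not stated there. The deposited file holds peak positions in base pairs (starts counted from 0, converted to 1 here), with no value per library.

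Genes came from the RefSeq table of GRCm38.p6, the assembly mm10 names: 21521 protein-coding genes among 49209 on chromosomes 1 to 19 and X, with 345 genes of patch or unplaced scaffolds left out. Strands, start sites and sequences came from the RefSeq promoter table, which held 9 of the 10 members. The 6 peaks off the chromosomes were not used. Counting and motif search (Python 3.11.15, pandas 2.3.3, numpy 2.4.6) were tested on simulated data. A main and a looser kappaB pattern were searched.

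The members and lists were chosen with earlier results of these data known. Named genes were the members, genes nearest to their peaks, up to 3 genes sharing most of their peaks (likeness is shared peaks over the peaks of either gene), and listed genes within 10 kb of a peak. Alternatives were other windows, any overlap, wider peaks, merged peaks, the nearest gene only and start sites.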

Additional observations from a re-analysis of the deposited data

How the results depend on the processing

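With a 10 kb window, 10 peaks stood at members in place of 21 (FOS 1, JUN 3), 1 FOS gene had a peak in place of 3, and 4963 protein-coding genes (23.1%) did in place of 9295; 6 members kept a peak. With a 25 kb window, JUN genes had 3 peaks in place of 7, and 8 members had a peak. With the wider peaks alone, members had 11 peaks (FOS 1, ATF/BATF/MAF 4 in place of 8), 1 FOS gene had a peak, and 6140 protein-coding genes (28.5%) did. With each peak given to the nearest protein-coding gene end only, members had 13 peaks (FOS 3, JUN 4) in 8 genes, against 4708 protein-coding genes (21.9%). The other comparisons with an alternative, 55 of 70, stayed within 1.5 times, including any overlap (9 members), merged peaks (9) and a 100 kb window (10). No paired analysis was possible because the list has no value per library. A wider promoter window was not run, for lack of a genome. Depth, threshold and time of each peak are unknown, so a gene without a peak may still be bound.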

Other observations

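Genes known to be activated through AP-1 were also counted. Of 20 such genes, 12 (60.0%) had a peak centre within 10 kb of an end and 16 (80.0%) had one in the 50 kb window, against 17.1% and 43.2% of protein-coding genes. The closest were Il6 (0.0145 kb), the metallothionein genes Mt2 (0.0315 kb) and Mt1 (0.306 kb), the urokinase gene Plau (0.202 kb) and the hyaluronan receptor gene Cd44 (0.476 kb, with 6 peaks in its window). The metalloproteinase genes Mmp3, Mmp9 and Mmp13 had peaks at 4.36, 7.49 and 10.6 kb. The peak inside Mmp3 was also the nearest one to Mmp1a (12.5 kb) and to Mmp10 (50.7 kb), which had none in its window. Mt1 and Mt2 lie close together and their windows overlap. The counts are thus of genes and not of separate peaks. Ccnd1 (62.2 kb) and Hmox1 (222 kb) had none in the window. Several of these genes are also known NF-kB targets, the list was written with earlier results known, and no test was made. These genes were named after their values were seen.

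Among 28 wider relatives with a basic leucine zipper, 18 (64.3%) had a peak in the 50 kb window and 7 (25%) within 10 kb of an end, against 43.2% and 17.1% of protein-coding genes. Peaks lay 0.093 kb from Cebpg, 0.145 kb from Creb1 and 0.604 kb from Ddit3, the stress gene that encodes CHOP. Cebpb, which encodes a partner of NF-kB at many inflammatory genes, had none in its window (52.3 kb). Nfe2l2, the gene of the antioxidant regulator NRF2, had 5 peaks in its window, none inside the gene. These were also named after their values were seen.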
